A study of Mus musculus with 3 samples.

Results

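The 10 genes described here encode the machinery with which mouse cells present antigen on MHC class II molecules: the chain genes H2-Aa, H2-Ab1 and H2-Eb1, the invariant chain gene Cd74, the peptide editor genes H2-DMa, H2-DMb1 and H2-DMb2, the editor's modulator genes H2-Oa and H2-Ob, and the regulator gene Ciita. The rule that defines them uses gene symbols and no measured value, and all 10 were present among the 32285 features of each count table. The data came from C57BL/6J mice, whose femoral and tibial marrow was enriched on a density gradient and profiled cell by cell with 10x Genomics 3' chemistry. There were 3 groups of 1 library each: Sham (the operated control), MI (myocardial infarction, by ligation of the left anterior descending coronary artery) and MI-E (infarction with an agent the labels abbreviate as EMPA). All 3 groups carry the wild-type C57BL/6J background. Age, sex, time after surgery, the dose of EMPA and the number of mice behind a library are not stated in the labels. The surgical protocol attached to all 3 labels describes the ligation, so what was done in Sham mice is known only from the group name.

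MHC class II molecules are alpha-beta pairs that hold peptides from endocytosed material at the cell surface, where CD4+ T cells read them. In the endoplasmic reticulum the pairs assemble on the invariant chain, Cd74, which blocks the groove and steers them to endosomes; there H2-DM exchanges the remaining invariant-chain fragment for peptide, and H2-O, made mostly by B cells, holds H2-DM back. Transcription depends on Ciita, a co-activator that binds no DNA itself and acts through factors assembled on the conserved X and Y boxes of class II promoters. Dendritic cells, macrophages and mature B cells are the professional presenters, while neutrophils and red cell precursors lack the pathway.

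Of the members other than Cd74 and Ciita, all 8 lie in the class II region of chromosome 17. In build mm10 (GENCODE M21) these were H2-Oa (ENSMUSG00000024334, chr17:34092340-34095234), H2-DMa (ENSMUSG00000037649, chr17:34119541-34139101), H2-DMb2 (ENSMUSG00000037548, chr17:34143307-34151555), H2-DMb1 (ENSMUSG00000079547, chr17:34153072-34160230), H2-Ob (ENSMUSG00000041538, chr17:34238903-34254414), H2-Ab1 (ENSMUSG00000073421, chr17:34257689-34269419), H2-Aa (ENSMUSG00000036594, chr17:34282744-34287823, the member on the minus strand) and H2-Eb1 (ENSMUSG00000060586, chr17:34305867-34316674). Ciita (ENSMUSG00000022504) is at chr16:10480059-10528418, and the identifier of Cd74 is ENSMUSG00000024610. A RefSeq promoter window (GRCm38.p6, 250 bases before to 50 after the start) was at hand for 7 of the 10 members. Each window was searched on both strands for AGNAACNGA, a core of the X box, and TGATTGG, a core of the Y box. The Y core was found in 6 of the 7 (not in H2-DMa) and the X core in 3 (H2-Eb1, H2-DMb1 and, on the minus strand next to the start site, H2-Oa), against 7.82% and 5.35% of 32851 windows of this length. Both cores were found in 3 of the 7 members and in 0.381% of all windows. The stretches below, in 5' to 3' direction of each gene and with the cores in capitals, show the shared element in a chain gene with both cores, in a chain gene with the Y core, and in H2-Ob, the member that climbed least along the B stages.
H2-Eb1, chr17:34305756-34305825 (+): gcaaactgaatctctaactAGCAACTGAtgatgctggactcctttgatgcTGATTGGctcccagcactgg
H2-Aa, chr17:34287854-34287923 (-): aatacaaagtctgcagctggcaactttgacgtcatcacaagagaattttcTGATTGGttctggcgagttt
H2-Ob, chr17:34238796-34238865 (+): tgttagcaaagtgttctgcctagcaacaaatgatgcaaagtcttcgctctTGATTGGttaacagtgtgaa
The X and Y cores lay 31 bases apart in H2-Eb1 and 32 apart in H2-DMb1, counted from start to start, and the Y cores of H2-Aa, H2-Ob and H2-Eb1 began 50, 59 and 61 bases before the start site. The neighbouring genes H2-DMb1 and H2-DMb2 are closely alike, with 61 of 70 bases identical around the boxes, and their ratio differed between cell classes (below). Their X-box stretches, with the core in capitals where the searched letters were met, differed at 2 of 30 bases.
H2-DMb1, chr17:34153081-34153110 (+): caatgaggtttacctAGTAACTGAtgatgc
H2-DMb2, chr17:34145110-34145139 (+): caatgaggtttacctattaaccgatgatgc
A match to these letters is a description of the window and not evidence that a factor binds it.

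After filtering, 20176 to 21889 cells per library remained, with medians of 2158 to 3143 unique molecular identifiers (UMIs, each counting 1 captured transcript 3' end) per cell. Cell classes were rebuilt from markers that include no class II gene, and the 10 members were left out of the genes used for clustering, so the classes did not use the values described here. All classes are called "-like" for that reason. No marker of the classes described below was at 0 in its class. The mature naive B-like class had 13 to 14 of its 14 markers more than 2-fold above the other cells, the macrophage-like class 14 of 14, the conventional dendritic-like class 13 to 14 of 14, and the monocyte-like class 10 to 12 of 12. The libraries shared 156 to 176 barcodes pairwise, under 1% of each. Levels are given as CPM, the UMIs of the gene over all UMIs of the class times 1000000, with no length scaling because 3' ends were counted. Where 3 values stand together they are those of Sham, MI and MI-E, in that order. With 1 library per group there is no test between groups: intervals in parentheses are exact 95% intervals that cover counting error only, and animal-to-animal and library-to-library spread is not measured. A member was counted as past the fold when it differed by at least 1.5-fold and its mean over the libraries compared was at least 10 CPM. The share of all features past the same fold in the same direction is given beside each first count. The 3 comparisons share libraries and are not independent of each other.

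Along the B lineage the summed level of the members was 14.2-fold to 31.1-fold higher at the mature naive B-like than at the pro-B-like stage, and the largest step lay between small pre-B-like and immature B-like cells in every library. Summed over the 10 genes, Sham cells held 746 CPM at the pro-B-like stage, 1352 at the small pre-B-like stage, 10430 at the immature B-like stage and 23181 at the mature naive B-like stage. The corresponding levels were 853, 1601, 15607 and 16157 CPM in MI, and 1521, 1258, 13879 and 21557 CPM in MI-E. The step from small pre-B-like to immature B-like cells was thus 7.72-fold in Sham, 9.75-fold in MI and 11-fold in MI-E, whereas the last step was 2.22-fold, 1.04-fold (1.01 to 1.06) and 1.55-fold. The large pre-B-like class, with 38 cells in MI, was too small to follow. In MI-E the small pre-B-like level lay below the pro-B-like one, at 0.827 (0.738 to 0.929) of it; 6 of the 126 MI-E pro-B-like cells held 50.7% of the pro-B-like member UMIs. The number of members highest at the mature naive B-like stage was 10 of 10 for Sham, 9 of 10 for MI and 10 of 10 for MI-E. The exception in MI was Cd74, at 9476 CPM in immature B-like and 6898 CPM in mature naive B-like cells, a ratio of 0.73.

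**Figure D1:**
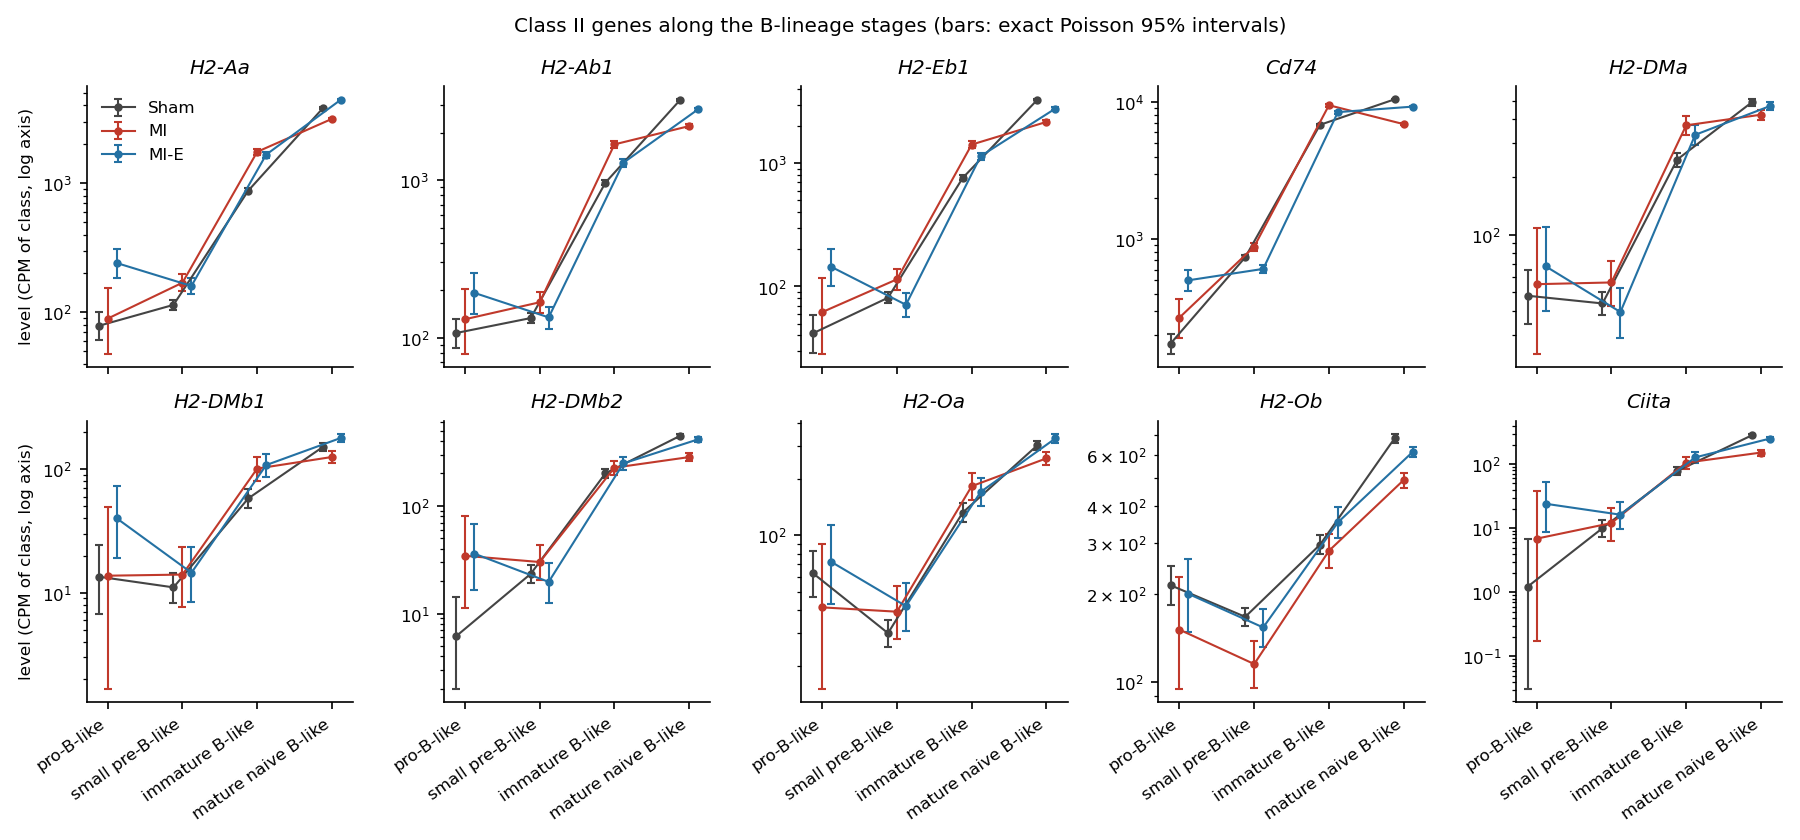
Level of each class II gene (CPM of the class, log axis) at 4 B-lineage stages in the Sham, MI and MI-E libraries. Points are library values and bars exact Poisson 95% intervals; the chain genes and Cd74 climb steeply at the immature B-like stage, while H2-Ob starts high and climbs least.

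The members differed widely in how far they climbed. The chain gene H2-Aa stood 48.5-fold higher in mature naive B-like than in pro-B-like cells in Sham, 35.2-fold in MI and 18.4-fold in MI-E. For Cd74 the same folds were 60.5, 25.7 and 18.5, and for H2-DMa 10.3, 7.70 and 6.89. H2-Ob, the beta chain of the H2-O modulator, was 3.19-fold, 3.25-fold and 3.06-fold higher. It was already at 215, 151 and 201 CPM in pro-B-like cells, where it was the most abundant member in Sham (28.8% of all member UMIs, against 2.96% in mature naive B-like cells). Ciita had 1, 1 and 6 UMIs at that stage and reached 282, 151 and 250.6 CPM in mature naive B-like cells.

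The balance between the H2-O modulator and the H2-DM editor also differed between stages. H2-Oa and H2-Ob together made up 80.4% of the H2-O and H2-DM UMIs in Sham pro-B-like cells, 54.6% (51.3 to 57.9) in large pre-B-like cells, 71.7% in small pre-B-like cells, 45.8% in immature B-like cells and 47.5% in mature naive B-like cells, so the path was not a steady one. In pro-B-like, small pre-B-like and immature B-like cells the shares were 65.1%, 60.6% and 39.9% in MI, and 65.4%, 72.7% and 43.2% in MI-E. MI and MI-E ended at the same point, with 47.4% and 47% in mature naive B-like cells. H2-O was a minor component in the myeloid presenters: 7.71% to 9.75% in conventional dendritic-like cells, 1.95% to 2.62% in macrophage-like cells and 2.36% to 3.22% in monocyte-like cells. Plasmacytoid dendritic-like cells held 14.1% to 17.9%, stem and progenitor-like cells 22.9% to 31.7%, and basophil-like cells 64.6%, 71.5% and 67.5%.

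The shares of H2-DMb1 and H2-DMb2, alternative beta chains of H2-DM, differed more between later B-like and myeloid classes than between libraries. H2-DMb2 made up 74.7% (73.0 to 76.3) of the UMIs of the pair in mature naive B-like cells of Sham, 69.3% in MI and 69.8% in MI-E. Its share was 77.6%, 69.1% and 69.6% in immature B-like cells, so that it was higher in Sham in both classes. Earlier stages had fewer UMIs of the pair. Small pre-B-like cells held 112, 30 and 23 of H2-DMb2 and 53, 14 and 17 of H2-DMb1 in Sham, MI and MI-E. Pro-B-like cells held 5, 5 and 9 of H2-DMb2 and 11, 2 and 10 of H2-DMb1. In conventional dendritic-like cells it was 5.49%, 8.79% and 6.58%, in macrophage-like cells 0.88%, 2.96% and 2.74%, and in monocyte-like cells 7.71%, 7.52% and 7.45%. Plasmacytoid dendritic-like cells lay in between, at 17.2%, 14.2% and 12.1%. The intervals of the immature and mature naive B-like classes did not overlap those of the dendritic-like, macrophage-like and monocyte-like classes in any library. Because the sequences of the pair are so alike, reads that matched both could have been dropped or split in counting, and the size of these shares carries that uncertainty.

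**Figure D2:**
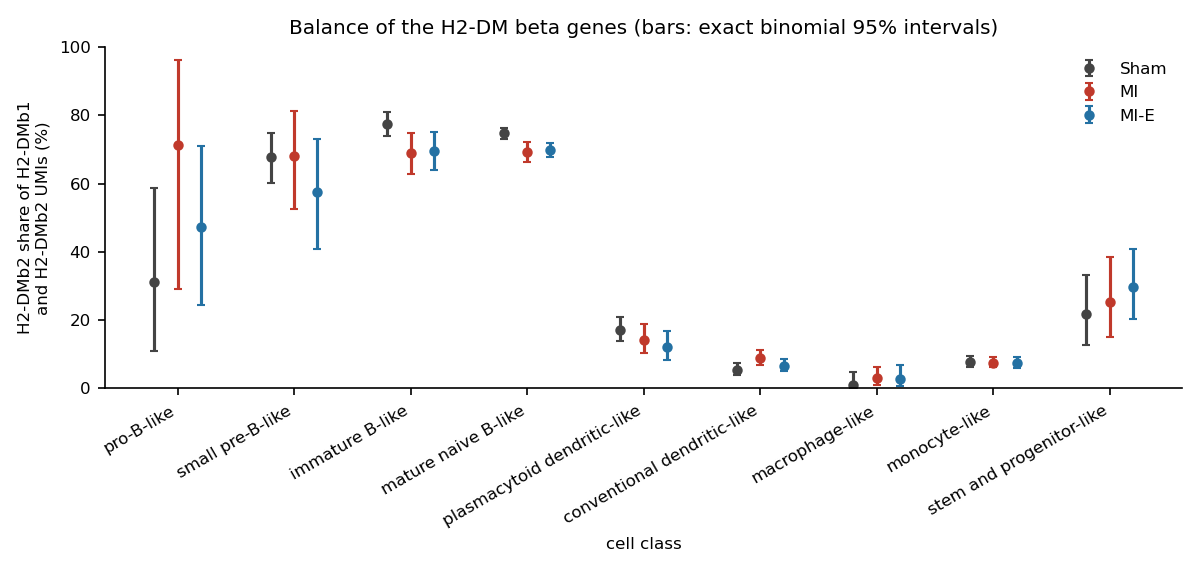
Share of H2-DMb2 among H2-DMb1 and H2-DMb2 UMIs (%) by cell class and library, with exact binomial 95% intervals. Immature B-like and mature naive B-like cells sit near 70% in all 3 libraries, and the conventional dendritic-like, macrophage-like and monocyte-like cells below 10%.

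Across classes, the chain genes and the B-biased members followed different orders. H2-Aa was highest in conventional dendritic-like cells of Sham (5832 CPM), ahead of macrophage-like (5096 CPM) and mature naive B-like cells (3813 CPM). H2-Ab1 kept that order in Sham (5873, 4649 and 3238 CPM), and H2-Eb1 had macrophage-like cells slightly ahead of conventional dendritic-like cells (5037 and 4891 CPM). Cd74 was highest in conventional dendritic-like cells in Sham (13114 CPM), in immature B-like cells in MI (9476 CPM) and in mature naive B-like cells in MI-E (9255 CPM). H2-DMb2, H2-Oa and H2-Ob were highest in mature naive B-like and second highest in immature B-like cells in all 3 libraries. Ciita was highest in mature naive B-like cells in Sham (282 CPM) and MI-E (250.6 CPM), and in conventional dendritic-like cells in MI (187 CPM). Over 50 library-by-class points, which share libraries and class definitions, the Pearson correlations of log2(CPM + 1) were 0.99 among the 3 chain genes, 0.96 between the chain genes and Ciita, 0.94 between H2-DMa and H2-DMb1, 0.83 between H2-Oa and H2-Ob, and 0.19 between H2-DMb1 and H2-Ob.

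**Figure D3:**
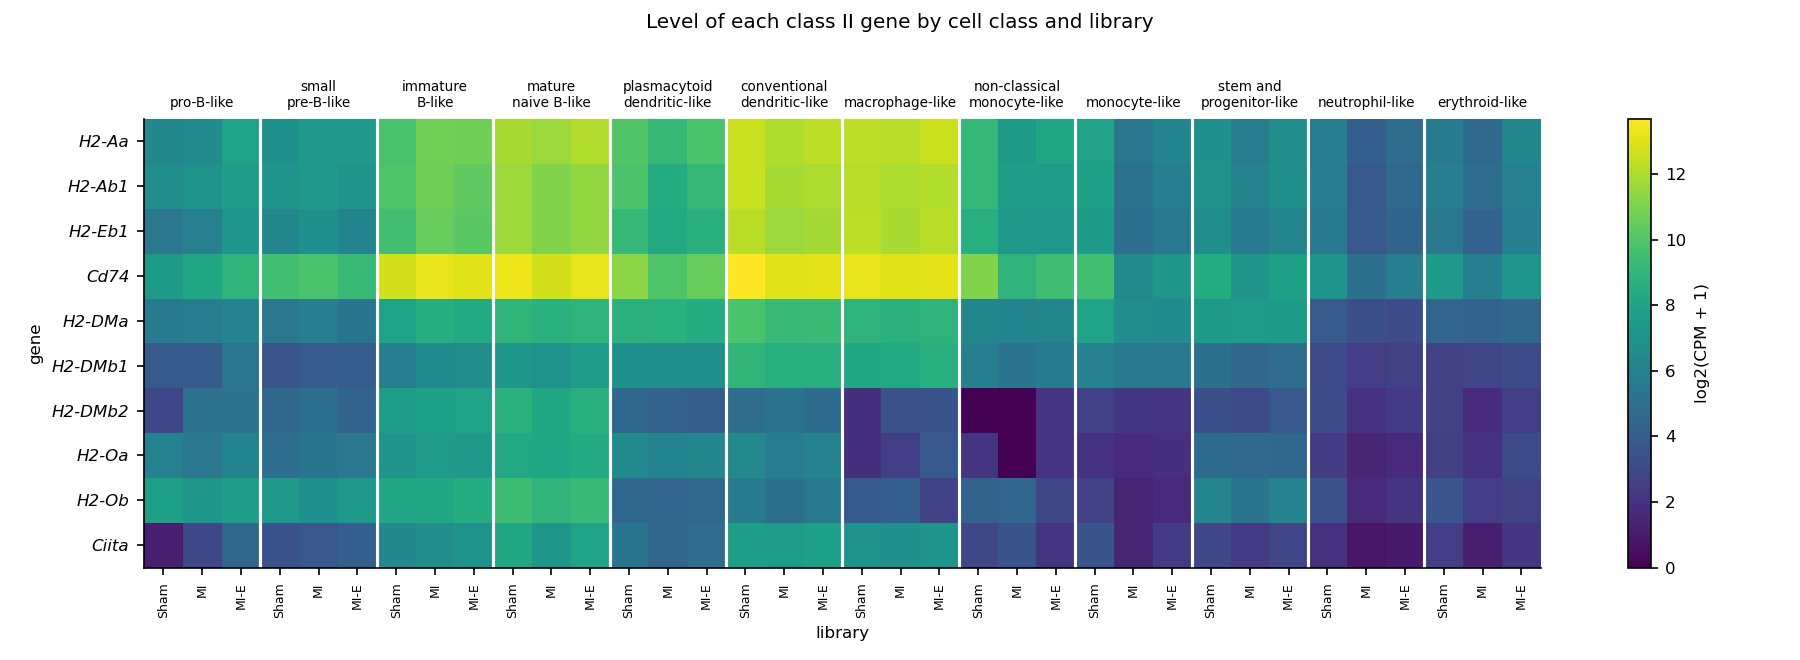
Level of each class II gene, as log2(CPM + 1) on the colour scale, in 12 cell classes and 3 libraries. The chain genes and Cd74 are brightest in mature naive B-like, conventional dendritic-like and macrophage-like cells; H2-DMb2, H2-Oa and H2-Ob are brightest at the mature naive B-like stage, and the chain genes and Cd74 are darker in the MI and MI-E than in the Sham column of monocyte-like cells.

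In mature naive B-like cells all 10 members were lower in MI than in Sham, and all 10 were higher in MI-E than in MI. The chain gene H2-Eb1 stood at 3298, 2172 and 2790 CPM in Sham, MI and MI-E, so that Sham exceeded MI 1.52-fold (1.47 to 1.57). H2-Ab1 stood at 3238, 2206 and 2821 CPM, 1.47-fold (1.42 to 1.52) higher in Sham than in MI. H2-Aa was the least different chain between Sham and MI, at 3813, 3145 and 4432 CPM, and was the chain that exceeded its Sham level in MI-E. For Cd74, the chaperone of the pathway, the levels of 10469, 6898 and 9255 CPM put Sham 1.52-fold (1.49 to 1.55) above MI. The editor genes H2-DMa (492, 423 and 470 CPM) and H2-DMb1 (152, 126 and 180 CPM) differed by less than 1.25-fold between Sham and MI, but H2-DMb2 (448, 284 and 415 CPM) by 1.58-fold (1.44 to 1.73). Of the modulators, H2-Oa stood at 303, 258 and 329 CPM and H2-Ob at 685, 492 and 614 CPM.

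The regulator Ciita showed the widest gap of the 10 in these cells, with 282, 151 and 250.6 CPM in Sham, MI and MI-E. Sham exceeded MI 1.86-fold (1.65 to 2.10) and MI-E exceeded MI 1.65-fold (1.46 to 1.88). In MI, 4 of 10 members (H2-Eb1, H2-DMb2, Cd74 and Ciita) were at least 1.5-fold lower than in Sham, against 2.58% of all features tested. The median log2 ratio was -0.51 over the members and 0.13 over all features. None of the 10 passed the fold between MI-E and Sham (background 2.23%), and 1 of 10, Ciita, was at least 1.5-fold higher in MI-E than in MI (background 3.48%). Summed over the 10 genes, Sham exceeded MI 1.43-fold (1.42 to 1.45), and MI-E stood at 0.93 (0.92 to 0.94) of Sham. Of the mature naive B-like cells, 99.2%, 84.6% and 96.9% in Sham, MI and MI-E held at least 10 member UMIs; with cells thinned to 1000 UMIs, which left out 248, 1080 and 1462 shallower cells, the shares were 98.7%, 84.3% and 97.1%. Median depths before thinning were 1328, 1002 and 1024 UMIs.

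Different sub-clusters made up this class in the 3 libraries. A sub-cluster led by Gpr183 and Fcer2a held most Sham cells (2942), and another led by Cd200 and Ptpn22 held most MI (2076) and MI-E (2878) cells. Within the first the 10 genes summed to 23203, 16568 and 22578 CPM in Sham, MI and MI-E, and within the second to 23143, 16130 and 21450 CPM. Ciita stood at 282, 150 and 260 CPM in the first and at 278, 152 and 250 CPM in the second. Within each sub-cluster the sums were thus lower in MI than in Sham, as over the class. The class held 3231, 2184 and 3191 cells in Sham, MI and MI-E. Each sub-cluster thus sets most cells of one library against a small part of the other. The part of the sub-clusters in the gap was not tested. Scaling by median-of-ratios factors lowered the all-feature median of MI over Sham in this class by 0.17 on the log2 scale; all features past the fold were then 52.2% lower ones, against 20.3% with scaling by total UMIs, and 6 members were past the fold instead of 4. The count was 2 with the looser filter, at Leiden resolution 2 and with members among the variable genes.

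**Figure D4:**
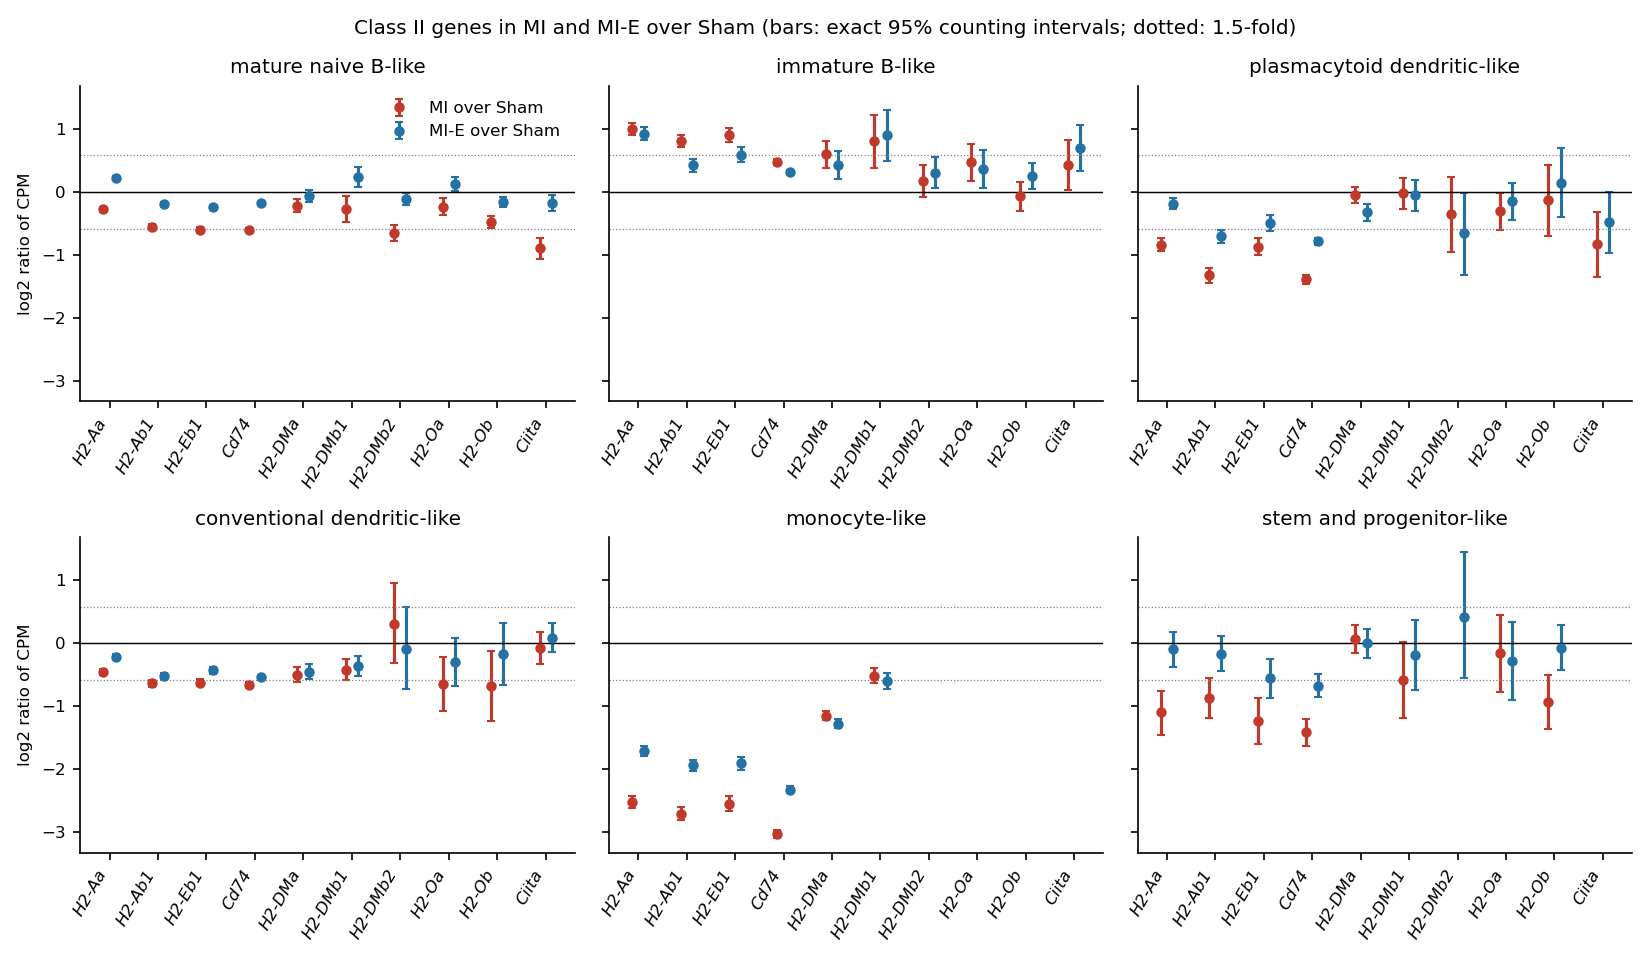
Log2 ratio of CPM of MI over Sham and of MI-E over Sham for each class II gene in 6 cell classes; bars are exact 95% counting intervals and dotted lines mark 1.5-fold, and members below 10 CPM on average are left out. Ratios lie below 0 in mature naive B-like, plasmacytoid and conventional dendritic-like and monocyte-like cells for nearly every gene in MI, and above 0 in immature B-like cells except for H2-Ob in MI.

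Immature B-like cells showed the opposite order. H2-Aa stood at 874, 1749 and 1663 CPM in Sham, MI and MI-E, 2.00-fold (1.86 to 2.14) higher in MI than in Sham. H2-Eb1 (762, 1422 and 1146 CPM) and H2-Ab1 (965, 1688 and 1291 CPM) were 1.87-fold and 1.75-fold higher in MI. Cd74 followed with 6817, 9476 and 8440 CPM, a difference of 1.39-fold, while H2-Ob stood at 296, 282 and 353 CPM with overlapping intervals. In MI, 5 of 10 members were at least 1.5-fold higher than in Sham (H2-Aa, H2-Ab1, H2-Eb1, H2-DMa and H2-DMb1), against 12.3% of all features. In MI-E 4 of 10 were past the fold over Sham (background 16.1%), and none was at least 1.5-fold lower than in MI (background 7.61%). The summed ratio of MI over Sham kept its sign under 12 of 13 alternatives. The count of 5 changed by more than 1.5-fold under 2 of 15. The part of the clustering in this difference was not tested. With each library clustered apart the summed ratio of MI over Sham turned to -1.23 on the log2 scale from 0.58, and at Leiden resolution 2 it was 0.11, with none of the 10 past the fold.

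At the earlier stages the members were low, and in small pre-B-like cells few passed the fold. In small pre-B-like cells H2-Ob was lower in MI (167, 115 and 154 CPM in Sham, MI and MI-E) while the other 9 members were higher by less than 1.5-fold, and none was at least 1.5-fold lower than in Sham (background 6.24%). For MI-E, 1 of 10 was past the fold above Sham (Ciita, 10.0 and 16.3 CPM; background 10.1%) and 2 of 10 were past the fold below MI (H2-Eb1 and H2-DMb2; background 6.62%). The summed log2 ratio of MI over Sham, 0.24, was -0.30 within the sub-cluster led by Nav2 and Bmf, and changed sign under 4 of 16 alternatives. In pro-B-like cells the chain genes and Cd74 were highest in MI-E: Cd74 stood at 173, 268 and 502 CPM and H2-Aa at 78.6, 89.4 and 241 CPM. The counts past the fold were 2 of 9 higher in MI than in Sham (background 21.1%), 7 of 10 higher in MI-E than in Sham (background 21.2%) and 6 of 10 higher in MI-E than in MI (background 25.3%). The mature B marker Ms4a1 stood at 46.6, 75.7 and 104 CPM in this class, and 6 of the 126 MI-E cells held 50.7% of the member UMIs, against 42.7% in 4 of 78 MI cells and 40% in 22 of 438 Sham cells. The part of these cells in the counts was not tested. With likely doublets kept the count of 7 became 2 and the summed log2 ratio of MI over Sham became -0.81 from 0.19.

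Plasmacytoid dendritic-like cells, whose identity rests on Siglech, Tcf4 and similar markers, held less class II RNA in MI. Cd74 stood at 2538, 969 and 1470 CPM in Sham, MI and MI-E, and Sham exceeded MI 2.62-fold (2.49 to 2.75). H2-Ab1 stood at 891, 357 and 548 CPM, 2.50-fold (2.30 to 2.72) higher in Sham than in MI. H2-Aa (1005, 562 and 881 CPM), H2-Eb1 (570, 312 and 405 CPM) and Ciita (39.5, 22.3 and 28.4 CPM) followed the same order. The editor genes did not: H2-DMa stood at 445, 430 and 356 CPM, and H2-DMb1 at 115, 113 and 111 CPM. The share of H2-DMa and H2-DMb1 among the member UMIs accordingly was 9.77%, 18.9% and 11.9% in Sham, MI and MI-E. In MI, 5 of 10 members were past the fold below Sham (background 5.72%), in MI-E 3 of 10 (background 3.77%), and 3 of 10 were past the fold in MI-E above MI (background 7.34%). The last count was 0 with the looser filter, the stricter filter, each library clustered apart and either size-factor scaling. Markers of other class II-rich cells were also lower in MI in this class: Cd79a stood at 108, 44.0 and 39.4 CPM, Ms4a1 at 30.9, 12.4 and 9.99 CPM and 5 conventional dendritic markers at 348, 252 and 333 CPM. The 5 were picked from a list of 14 that was not summed in this class. The part of all these markers in the result was not tested. With free B-lineage RNA subtracted, 5 of 10 members were past the fold in MI below Sham.

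In conventional dendritic-like cells, the class with the highest summed level in Sham, the 10 genes summed to 31454, 20830 and 23195 CPM in Sham, MI and MI-E. Sham exceeded MI 1.51-fold (1.49 to 1.53). Cd74 stood at 13114, 8328 and 9039 CPM, H2-Ab1 at 5873, 3779 and 4117 CPM and H2-DMa at 881, 625 and 646 CPM. Ciita did not share this pattern: its 197, 187 and 210 CPM gave a ratio of Sham over MI of 1.1 (0.89 to 1.3). In MI, 5 of 10 members were past the fold below Sham (H2-Ab1, H2-Eb1, H2-Oa, H2-Ob and Cd74; background 7.03%). None was past the fold in MI-E below Sham (background 5.70%) or below MI (background 5.20%). Against MI, 9 of 10 were higher in MI-E, by less than 1.5-fold. Median-of-ratios factors gave 3 below Sham, TMM factors 2, members among the variable genes 2 and the stricter filter 1. The 14 markers of the class summed to 2275, 1484 and 1876 CPM, 5 of them (Cd209a, Clec9a, Xcr1, Clec10a and Zbtb46) to 1263, 607 and 764 CPM, and the neutrophil genes S100a8 and S100a9 to 912, 4654 and 3113 CPM. Their part in the class II difference was not tested. The MI count was 0 with cells thinned to 1000 UMIs and 8 with libraries clustered apart. In the sub-cluster led by Cd209a and Clec10a, which held 229, 339 and 378 cells of Sham, MI and MI-E, the sums were 32579, 20135 and 24483 CPM.

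Macrophage-like cells, marked by the complement genes C1qa, C1qb and C1qc, carried nearly as much class II RNA, and their levels were closer between libraries. The 10 genes summed to 25401, 22216 and 25084 CPM in Sham, MI and MI-E. H2-Aa stood at 5096, 4678 and 6127 CPM, Cd74 at 9704, 8567 and 8766 CPM and Ciita at 128, 118 and 136 CPM. None of 8 measured members was past the fold in MI below Sham (background 16.5%), none of 7 in MI-E below Sham (background 15.9%), and 1 of 9 in MI-E below MI (H2-Ob, from 10 and 2 UMIs; background 14%). The other 8 were higher in MI-E than in MI, by less than 1.5-fold. The class held 136 to 222 cells per library. The count for MI below Sham was no longer 0 under 5 of 17 alternatives. Among these, 8 members were past the fold with each library clustered apart and 10 with likely doublets kept. It was 6 at Leiden resolution 2 and 5 with the stricter filter.

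Monocyte-like cells showed the largest summed difference between MI and Sham among the 9 classes compared. Cd74 stood at 744, 90.7 and 148 CPM in Sham, MI and MI-E, so that Sham exceeded MI 8.20-fold (7.85 to 8.57) and MI-E 5.02-fold (4.83 to 5.21). H2-Ab1 stood at 228, 34.9 and 59.6 CPM, H2-Aa at 236, 41.1 and 72.0 CPM, and H2-Eb1 at 171, 29.3 and 45.7 CPM. Sham exceeded MI 6.54-fold, 5.74-fold and 5.84-fold for these chain genes. Ciita was low throughout, at 10.6, 1.68 and 3.95 CPM (UMI counts of 173, 45 and 97), and 6.33-fold (4.54 to 8.99) higher in Sham than in MI. The editor genes differed less: H2-DMa stood at 234, 106 and 96.8 CPM, and H2-DMb1 at 65.3, 45.8 and 43.0 CPM, 1.43-fold (1.31 to 1.55) higher in Sham than in MI. H2-DMa and H2-DMb1 together made up 17.6%, 42.5% and 29.3% of the member UMIs in Sham, MI and MI-E. Of 6 measured members, 5 were past the fold in MI below Sham (background 8.16%), 6 of 6 in MI-E below Sham (background 5.0%), and 4 of 6 in MI-E above MI (H2-Aa, H2-Ab1, H2-Eb1 and Cd74; background 2.77%). The last count was 0 with the looser filter, the stricter filter, doublets kept, and Leiden resolutions 0.5 and 2, and the summed log2 ratio of MI-E over MI, 0.42, was -0.12 at resolution 0.5. The median log2 ratio of MI over Sham was -2.53 over the 6 members and 0.00 over all features.

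The class II RNA of this class sat in few cells. Per cell thinned to 1000 UMIs, at least 3 member UMIs were found in 10.3% (9.30 to 11.4) of Sham, 1.89% (1.52 to 2.33) of MI and 2.83% (2.33 to 3.39) of MI-E monocyte-like cells. Without thinning the shares were 36.9%, 13.8% and 15.1%, at median depths of 3890, 4605 and 4511 UMIs. Neutrophil-like cells, which should lack the pathway, gave 2.18%, 0.290% and 0.426% with thinning (median depths 2701, 3272 and 2918 UMIs before it), and erythroid-like cells 4.73%, 2.59% and 5.49% (3560, 3876 and 3577 UMIs). The MI and MI-E shares of monocyte-like cells thus lay below those of erythroid-like cells and above those of neutrophil-like cells. The 5% of monocyte-like cells with the most held 71.6%, 69.3% and 74.1% of the thinned member UMIs. Free RNA of the B lineage, gauged from Cd79a and Cd79b, would account for 4.08%, 11.1% and 13.1% of the summed level in Sham, MI and MI-E, and the summed log2 ratio of MI over Sham was -2.37 with it subtracted, against -2.25 without.

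**Figure D5:**
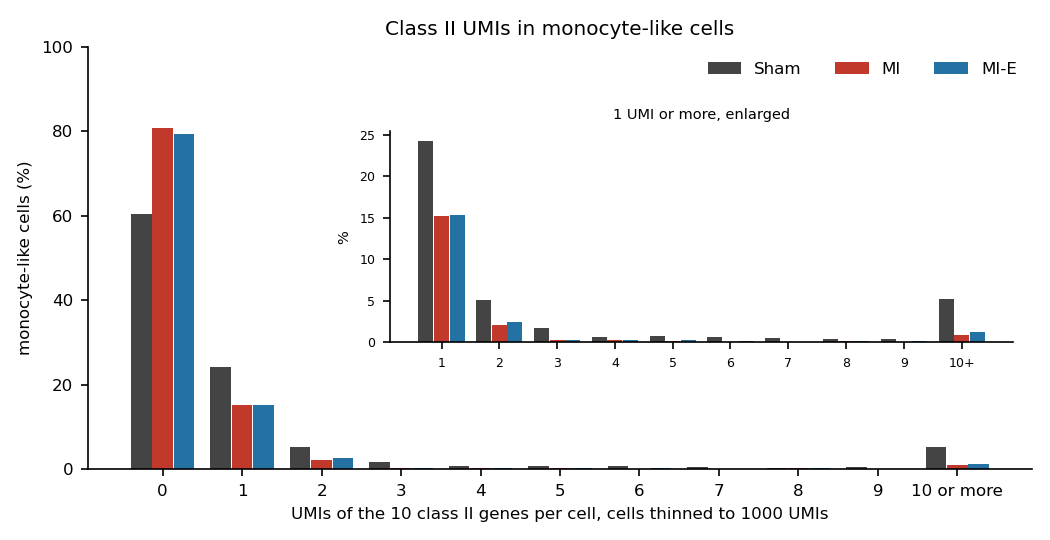
Share of monocyte-like cells (%) by the number of UMIs of the 10 class II genes per cell, after thinning each cell to 1000 UMIs, with an enlarged inset for 1 UMI or more. Sham has fewer cells at 0 and more in each bin from 1 to 10 or more than MI and MI-E.

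Different clusters held most of the monocyte-like class in Sham and in the other libraries. In the clustering of all cells, 2849 Sham cells but 41 MI and 83 MI-E cells were in a cluster led by Ifi27l2a and Cx3cr1, a gene also used as a marker of non-classical monocytes, and 3741 MI and 2804 MI-E but 31 Sham cells were in a cluster led by Saa3 and Ms4a8a. S100a8 and S100a9 summed to 1849, 22780 and 12146 CPM in Sham, MI and MI-E monocyte-like cells. At Leiden resolution 2 the summed log2 ratio of MI over Sham was -0.98. A pair of clusters, both led by Itga1, Nrg1, Klf4 and C1galt1c1 among others, held monocyte-like cells of all 3 libraries. In the one that was also led by histone genes (506 Sham, 503 MI and 644 MI-E cells) the 10 genes summed to 376, 207 and 218 CPM in Sham, MI and MI-E, and Sham exceeded MI 1.82-fold (1.69 to 1.96). In the other (82, 483 and 531 cells) the sums were 439, 232 and 355 CPM, with Sham 1.89-fold (1.67 to 2.13) above MI. H2-Aa was 2.11-fold (1.34 to 3.51) higher in MI-E than in Sham in this cluster, from 20 Sham UMIs. Within this pair of clusters the members were thus lower in MI by a smaller factor than over the class, where the sums of 1703 and 357 CPM differed 4.77-fold (4.66 to 4.89). In the main Sham cluster, led by Ifi27l2a, the order of Sham and MI-E was the opposite of that over the class: 60 MI-E monocyte-like cells summed to 4376 CPM (4092 to 4674) and 2757 Sham cells to 2044 CPM (2017 to 2071).

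Some dendritic markers moved with the class II genes in this class, while the full marker list followed them less closely. A set of 5 conventional dendritic markers (Cd209a, Clec9a, Xcr1, Clec10a and Zbtb46) summed to 57.4, 11.7 and 20.9 CPM in Sham, MI and MI-E, which was 4.54%, 1.93% and 2.73% of their level in conventional dendritic-like cells. The 10 members stood at 5.41%, 1.71% and 2.06% of theirs. The full list of 14 dendritic markers summed to 417, 263 and 389 CPM, with none at 0. In MI-E this list stood near its Sham level, whereas the members summed to 1703 CPM in Sham and 477 CPM in MI-E. In monocyte-like cells without a UMI of the 5 markers the members summed to 1117 CPM in Sham (2898 cells), 301 in MI and 350 in MI-E, still 3.71-fold (3.61 to 3.82) higher in Sham than in MI. No UMI of any of the 14 was found in 724 Sham, 1290 MI and 625 MI-E cells (21.3%, 28.2% and 15.7% of the class). In these cells Sham exceeded MI 3.33-fold and MI-E stood at 1.00 (0.93 to 1.08) of MI. Cells with few UMIs lack a marker UMI more readily, and the part of depth in this selection was not tested. A sub-cluster of 408 Sham cells led by the interferon-induced genes Ifit3, Ifit1 and Cxcl10 held 7181 CPM of the members, against 1907 CPM in the largest Sham sub-cluster.

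Non-classical monocyte-like cells showed the same order with fewer cells (160, 185 and 186). The 10 genes summed to 3793, 1163 and 1459 CPM in Sham, MI and MI-E, and Cd74 stood at 2147, 478 and 709 CPM. H2-DMa stood at 75.3, 71.4 and 73.4 CPM, from 20 to 23 UMIs. The levels rested on few cells: 9 of 185 MI cells held 82.5% and 9 of 186 MI-E cells 76.8% of the member UMIs, against 45.8% in 8 of 160 Sham cells. The 5 dendritic markers stood at 45.8, 21.4 and 16 CPM. They were picked from the list of 14, which was not summed in this class, and their part was not tested.

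In stem and progenitor-like cells the members were low, and H2-DMa was the most even of them. It stood at 174, 182 and 174 CPM in Sham, MI and MI-E. Cd74 stood at 353, 133 and 222 CPM, 2.66-fold (2.30 to 3.08) higher in Sham than in MI, and H2-Aa at 116, 54.3 and 109 CPM. H2-Ob, as in pro-B-like cells, was detectable at 72.4, 38.0 and 69.0 CPM. In MI, 5 of 8 measured members were past the fold below Sham (background 6.74%), in MI-E 1 of 9 (Cd74; background 5.11%), and 5 of 8 were past the fold in MI-E above MI (background 6.5%). The last count was 1 with the stricter filter, where the summed log2 ratio of MI-E over MI was 0.07 instead of 0.51, and 2 with the looser filter, doublets kept, thinning, equal weight of cells or resolution 2. Free B-lineage RNA, gauged as above, would account for 46.4%, 38.4% and 39.6% of the summed level in the 3 libraries, and with mature naive B-like cells as its source for 128%, 54.2% and 56.9%. With the B-lineage estimate subtracted, the summed log2 ratio of MI over Sham was -0.62, against -0.82 without. The estimate with mature naive B-like cells as source, which exceeded the Sham level, was not subtracted. Neutrophil-like cells held 336, 95 and 154 CPM summed over the 10 genes and erythroid-like cells 364, 169 and 397 CPM.

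Of the 7 factors of the class II transcription list (Rfx5, Rfxap and Rfxank of the X-box complex, the Nfy genes and Creb1), none of 7 measured was past the fold between MI and Sham in mature naive B-like cells, and Rfx5 stood at 35.5, 29.1 and 38.9 CPM. None of 6 was past the fold between MI and Sham in monocyte-like cells (background 8.16% lower and 6.37% higher). In conventional dendritic-like cells 2 of 6 were higher in MI (background 15.0%), namely Creb1 (50.7 and 92.7 CPM) and Rfxap (21.6 and 38.0 CPM). Among 7 genes of lysosomal processing, 4 were higher in MI in conventional dendritic-like cells, against that same background, among them the thiol reductase gene Ifi30 (912, 1460 and 1373 CPM in Sham, MI and MI-E) and the protease gene Ctsl (16.6, 51.6 and 40.2 CPM). In monocyte-like cells 2 of the 7 were lower in MI (background 8.16%; Ctss, 984 and 643 CPM, and Ctsb, 589 and 357 CPM) and 2 higher (background 6.37%; Ctsl, 37.3 and 107 CPM, and Ctsd, 206 and 312 CPM). Ctss encodes the protease that trims the invariant chain.

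Of the transcription factors linked to Ciita, 2 of 6 measured in mature naive B-like cells were lower in MI (background 2.58%), namely the repressor Bcl6 (55.8, 21.7 and 47.2 CPM) and Myc (33.7, 20.8 and 29 CPM). The activators Spi1 (111, 123 and 104 CPM) and Pax5 (460, 434 and 573 CPM) were not past the fold. Of the genes that set class II turnover, Cd83, which shields surface class II from degradation, was lower in MI in mature naive B-like cells (74.2, 47.3 and 86.1 CPM) and in conventional dendritic-like cells (29.9, 6.84 and 12.2 CPM). The ubiquitin ligase gene March1, which acts against it, stood at 199, 197 and 234 CPM in mature naive B-like cells. The Cd83 levels of conventional dendritic-like cells rest on few UMIs, from class totals of 1202430, 1607558 and 1967503. The markers of that class also summed lower in MI (above), and their part was not tested.

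Cd83 was also the gene most like the summed members over the 50 library-by-class points, with a Pearson correlation of 0.83 among 8688 genes compared. It was followed by 9930111J21Rik2 and Filip1l (both 0.81) and by Gpr18 and Il10ra (both 0.79). Cd83 led the ranking for Ciita as well (0.78). The genes most like H2-Ob were different ones, Rasgrp3 (0.91), Tut4 and Kmt2a (both 0.89). These correlations describe points that share libraries and carry no p-value.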

How the data were processed

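Raw UMI counts per gene and barcode were deposited by the authors, 1 matrix per library, with 25721 (Sham), 23810 (MI) and 22857 (MI-E) barcodes and 99657072, 127330601 and 109451500 UMIs. They were made with Cell Ranger 5.0.1 on mm10, per the submitters' processing notes, with no annotation release named there. Groups came from the treatment labels. The member rule uses symbols only, but this gene set and the gene lists were picked with earlier results of these data known.

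Filters kept cells with 300 genes or more, 500 UMIs or more and no more than 10% mitochondrial UMIs, and likely doublets (12.6%, 11.1% and 10.4%), scored against simulated ones, were removed. Cells of all libraries were clustered together without batch correction on 2000 variable genes, 40 components and 20 neighbours (Leiden resolution 1, seed 1; scikit-learn 1.9.0, igraph 0.11.9, leidenalg 0.10.2, Python 3.11.15), then again within the B lineage and within the myeloid classes. Clusters were named from marker lists; monocyte-like cells in sub-clusters without a name of their own kept the name from the clustering of all cells, and 783, 717 and 612 cells in mixed sub-clusters were left out. UMIs were summed per class and library. Levels have exact Poisson intervals, ratios exact conditional binomial intervals and shares exact Clopper-Pearson intervals (scipy 1.17.1). Free RNA was estimated by scaling the B-lineage profile of a library to a class's Cd79a and Cd79b. On simulated counts with 100 genes raised and 100 lowered 2-fold, the fold rule recovered 100% of both, for MI over Sham. This held in mature naive B-like (2814 genes) and monocyte-like cells (2939 genes), and 95.5% and 94.5% of intervals held the true ratio. The counts were Poisson draws without spread between cells or libraries, and changed genes were picked above a higher level than 10 CPM. The outcome therefore checks the calculation only. All 10 members are named, with pathway genes from listed groups and the nearest genes by correlation. The interferon gamma list is not reported here.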

Additional observations from a re-analysis of the deposited data

Results flagged for a closer look

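The summed level of the 10 genes differed in opposite directions between MI and Sham in neighbouring stages: the log2 ratio was 0.58 at the immature B-like and -0.52 at the mature naive B-like stage. The difference between these ratios was not tested. The immature B-like value was -1.23 with each library clustered apart, and the mature naive B-like value lay between -0.70 and -0.48 under all 16 alternatives tried.

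H2-Eb2, a beta chain gene next to H2-Eb1 that is not among the 10 genes, was found in small pre-B-like cells at 20.1 CPM in MI and 19.7 CPM in MI-E (20 and 23 UMIs), above the 0.626 CPM of Sham (3 UMIs of 4790619). In mature naive B-like cells it stood at 89.1, 66.8 and 113 CPM in Sham, MI and MI-E.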

How the results depend on the processing

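No paired analysis was possible because each group has 1 library. The alternatives changed the filter, doublet removal, clustering, scaling or depth; those by sub-cluster, by cluster and without dendritic markers were added after seeing the data. The summed log2 ratio of MI over Sham kept its sign under every alternative run in mature naive B-like (-0.70 to -0.48), monocyte-like (-2.56 to -0.86), plasmacytoid dendritic-like (-1.08 to -0.79), conventional dendritic-like (-0.94 to -0.50) and stem and progenitor-like cells (-0.98 to -0.57). It did not in immature B-like (-1.23 to 0.69), small pre-B-like (-0.30 to 0.37), pro-B-like (-0.81 to 0.55) and macrophage-like cells (-2.27 to 0.17). Subtracting free RNA with mature naive B-like cells as its source was not among the alternatives run. That estimate exceeded the summed Sham level in stem and progenitor-like cells. Member values past the fold, pooled over 9 classes and both directions, were 32 of 81 for MI over Sham (25 lower, 7 higher). They were 22 of 82 for MI-E over Sham (10 lower, 12 higher) and 22 of 83 for MI-E over MI (3 lower, 19 higher). No pooled share of all features was taken, so these totals only track the processing, and the shares by class are given above. The first total became 53 and the last 38 with libraries clustered apart, and the last 14 with the looser filter. The share of monocyte-like cells with at least 3 member UMIs became 10.3% (Sham), 1.89% (MI) and 2.83% (MI-E) with thinning; for MI and MI-E it became 12.3% and 13.2% with doublets kept, 16.9% and 17.7% with members among the variable genes, and 12.3% and 12.1% with the stricter filter. Members highest at the mature naive stage stayed 10, 9 and 10.

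Log2 ratios of single members that changed sign were as follows. For MI over Sham in immature B-like cells with libraries apart, H2-Aa was -1.08, H2-Ab1 -1.51, H2-Eb1 -1.66, H2-DMa -1.04 and H2-DMb1 -0.40. For MI over Sham in pro-B-like cells H2-Oa was 0.24 (looser filter), 0.25 (resolution 0.5), 0.30 (members among the variable genes) and 0.72 (libraries apart), and Cd74 -1.11 (doublets kept). For MI-E over Sham in pro-B-like cells with doublets kept, H2-Ab1 was -0.0802, H2-Eb1 -0.0554 and Cd74 -0.21; H2-Eb1 was -0.0132 in immature B-like cells at resolution 2. For MI-E over MI in monocyte-like cells H2-Eb1 was -0.20 (looser filter), -0.0385 (stricter filter), -0.0418 (doublets kept) and -0.27 (resolution 0.5), H2-Ab1 -0.11 and Cd74 -0.0644 at resolution 0.5, and H2-Aa -0.0346 and Cd74 -0.15 without cells holding any of 14 dendritic markers. For MI-E over Sham in the smaller shared monocyte-like cluster, H2-Aa was 1.08, H2-Eb1 0.25 and Cd74 0.47. For MI-E over MI, H2-Eb1 was -0.0680 in stem and progenitor-like cells (stricter filter), and H2-Ob 1.18 (doublets kept) and 1.98 (libraries apart) in macrophage-like cells. The causes were not tested. Scaling by median-of-ratios or TMM factors moved the lower share of all features past the fold by over 10 percentage points in 16 and 18 of 27 comparisons. The stricter filter was not run for immature B-like cells and for pro-B-like comparisons with MI, where too few cells were left. Members with few UMIs, such as Ciita in pro-B-like cells and H2-DMb2 in macrophage-like cells, are limited by depth.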

Other observations

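H2-Oa was unusually prominent outside the B lineage in basophil-like cells, at 107, 149 and 90.3 CPM in Sham, MI and MI-E, next in level after mature naive B-like and immature B-like cells in all 3 libraries, while H2-DMb1 there stood at 23.9, 24.2 and 21.0 CPM. Plasma-like cells numbered 17, 30 and 30 in Sham, MI and MI-E, under the 50 per library asked for in the comparisons above. They held Cd74 at 2099, 2865 and 1827 CPM, 77.0% to 78.4% of their member UMIs, with H2-Oa and H2-DMb2 at 0 in MI-E. S100a8 and S100a9 summed to 560, 1134 and 9367 CPM there. Free RNA could not be gauged from Cd79a and Cd79b in this class. Plasma cells belong to the B lineage and may make these transcripts themselves (Cd79a, 702, 378 and 335 CPM).

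A pair of B-lineage sub-clusters that took no stage name differed in their order over libraries. In the one led by Il4i1, Egr3 and Nfkbid, with 343, 71 and 101 cells, the members summed to 9562, 15776 and 14234 CPM in Sham, MI and MI-E. In the one led by Zbtb32, Nid1 and Fcrl5, with 68, 79 and 161 cells, they summed to 17040, 11824 and 16663 CPM.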
